A study of Mus musculus with 28 samples.

Results

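The complement genes described here are C1qa, C1qb, C1qc, C3, C4b, C3ar1 and C5ar1, 7 of the 53342 Ensembl genes counted. They were chosen by name as components and receptors of the complement cascade, with earlier results of these data known, and each symbol matched 1 identifier that is present in all 3 count tables. RNA came from the cerebral cortex of C57BL/6J-background mice. The cKO mice carried the astrocyte driver mGFAP-Cre together with the loxP/loxP genotype at the targeted gene, while Ctrl animals, littermates matched for sex, are listed as loxP/loxP or loxP/+ and lack the driver. Bulk RNA-Seq compared 4 cKO with 4 Ctrl mice at postnatal day 17 (P17) and 4 with 4 at P24. Translating ribosome affinity purification (TRAP-Seq) compared 3 cKO with 3 Ctrl mice at P24. Each bulk library came from 1 mouse, and each TRAP mouse gave 1 Input and 1 IP library. In TRAP, mGFAP-Cre switches on the tagged ribosomal protein EGFP-L10a, polysomes are captured with anti-GFP antibodies (the IP library), and a part of the same lysate is sequenced uncaptured (the Input library). The Ctrl mice of that experiment must carry a Cre driver for the tag to be made, although their label does not list it, and the driver also acts in any other cell that has used the GFAP promoter.

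Complement is a cascade of secreted proteins that tags surfaces and recruits phagocytes. In the classical pathway the C1q complex, built from chains of C1qa, C1qb and C1qc, binds a target and, through the proteases C1r and C1s, leads to cleavage of C4 and C2. These then cleave C3, whose fragments are read by receptors on phagocytes. In brain, microglia are the main source of C1q, astrocytes make C4 and, when reactive, C3, and the cascade is known for its part in the removal of synapses. C3ar1 and C5ar1 encode the receptors for the small fragments C3a and C5a.

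The genes of the C1q chains lie side by side on mouse chromosome 4, all on the minus strand of GRCm38: C1qb at chr4:136880129-136886187, C1qc at chr4:136889804-136893065 and C1qa at chr4:136895917-136898803. C4b lies at chr17:34728380-34743882 and C3 at chr17:57203970-57228136, also on the minus strand. The promoter windows of C1qb and C1qc are shown because these neighbours encode subunits of 1 protein. Each window runs from 250 bases before to 50 bases after the start site (RefSeq, GRCm38.p6, minus strand, printed 5′ to 3′ in the direction of the gene), at chr4:136886151-136886450 for C1qb and chr4:136892865-136893164 for C1qc. Capitals mark GAGGAA, the core of the site bound by the myeloid factor PU.1, or its reverse complement.
C1qb: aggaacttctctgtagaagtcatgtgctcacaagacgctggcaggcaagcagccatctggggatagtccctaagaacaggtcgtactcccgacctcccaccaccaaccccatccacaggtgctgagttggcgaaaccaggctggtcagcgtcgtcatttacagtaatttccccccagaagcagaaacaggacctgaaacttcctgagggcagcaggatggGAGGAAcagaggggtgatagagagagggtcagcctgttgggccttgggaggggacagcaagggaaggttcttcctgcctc
C1qc: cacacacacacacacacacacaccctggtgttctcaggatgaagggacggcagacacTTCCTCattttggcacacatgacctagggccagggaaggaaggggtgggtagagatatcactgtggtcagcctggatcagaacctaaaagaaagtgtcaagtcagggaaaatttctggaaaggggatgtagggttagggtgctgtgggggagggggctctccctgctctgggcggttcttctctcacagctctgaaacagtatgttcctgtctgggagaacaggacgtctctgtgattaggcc

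Both windows held 1 match, on the forward strand 30 bases before the start site in C1qb and on the reverse strand 193 bases before it in C1qc. Of the 32851 promoters in the same table, 28.3% held the motif on either strand, so a match in a given window is common and is a description only. The windows of C3, C3ar1 and C5ar1 held none. The AP-1 motif TGANTCA was found in the C3ar1 window alone among the 5 members with a promoter entry (7.81% of all promoters hold it), and the E-box CACGTG in none of them (7.15%). C1qa and C4b had no entry. C4b has a paralog, C4a, nearby on chromosome 17. Of the distinct 50-base windows in C4b transcripts, 34.6% also occurred in C4a transcripts, whereas no window of the other 6 members occurred in any other gene. Reads from the shared windows could be counted for either gene or for none, so the C4b values are less certain than the others.

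The bulk libraries held between 8855488 and 14575306 counts and the TRAP libraries between 18433087 and 27242445. A gene with 3 counts, taken as the limit below which a level cannot be told from 0, stands at 0.2 to 0.341 CPM in bulk and 0.106 to 0.166 CPM in TRAP. CPM is the count scaled to library size after TMM normalisation within each table, so levels are compared between groups of 1 table only. The cKO Input library of replicate 1 stood apart. Its chi-square over genes, divided by the degrees of freedom, was 75.1 and 78.6 against the other cKO Input libraries, which gave 8.09 against each other. In P24 bulk, cKO replicate 1 differed from the other cKO libraries at 11.4, 14 and 12.4, while those gave 3.2 to 4.77 among themselves. Astrocyte markers matched the labelled tissue and fractions. Every marker of astrocytes and of microglia had counts in every library, and all 8 astrocyte markers were higher in IP than in Input in both genotypes. Of 3 mural cell markers tested, 2 also passed as higher in the Ctrl IP, beside 35.3% of all genes tested. Choroid plexus markers varied widely between bulk libraries. Their sums were 9.07 to 395.4 CPM in P24 Ctrl, 5.4 to 304.2 in P24 cKO, 108.6 to 492.3 in P17 Ctrl and 77.7 to 546.7 in P17 cKO. The part of this in the member values was not tested. In whole tissue and Input, a level reflects both the number of cells of a type and the RNA per cell, and these cannot be told apart.

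Divided by exonic length, the bulk Ctrl levels at P24 placed C1qb first at 24.4 ± 1.09 CPM per kb (SD, n = 4). C1qa followed at 14.6 ± 1.38 and C1qc at 12.5 ± 0.853 CPM per kb, and the ranges of these 2 overlapped. C4b stood at 2.54 ± 0.387 CPM per kb, then C3ar1 at 0.389 ± 0.134, C5ar1 at 0.316 ± 0.111 and C3 at 0.1 ± 0.0266. The C3ar1 and C5ar1 ranges overlapped and the remaining neighbours did not. The same order was found in all 4 bulk groups. In the Ctrl IP libraries the order changed, with C4b first at 2.21 ± 0.528 CPM per kb and C1qb second at 1.1 ± 0.139 (SD, n = 3), with no overlap of their ranges.

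At P24 the question was whether cortex lacking the gene in astrocytes carried a different amount of complement RNA. C4b, which encodes C4, the protein split by the C1 complex, was the member that rose. Its levels were 12, 15.5, 13.4 and 17.01 CPM in the Ctrl libraries and 17.7, 27.6, 28.8 and 25.3 CPM in the cKO libraries. Every cKO library stood above every Ctrl library, cKO replicate 1 by a small margin. The C4b mean was 1.72-fold higher in cKO, a log2 fold change of 0.78 (SE 0.15, adjusted p = 0.0184 by edgeR's quasi-likelihood test with Benjamini-Hochberg adjustment). An exact two-sided permutation test on the C4b means gave p = 0.0286, the smallest that 4 against 4 libraries allow. C4b was thus 1 of 6 members tested that passed, beside 1.72% of the 22495 genes tested, and 3.95% of those genes had all cKO libraries above all Ctrl libraries. The median log2 fold change of the 6 members was 0.41, against 0.000536 over all genes. With the C4a and C4b counts added together the log2 fold change was 0.75 (adjusted p = 0.0181). C4a alone gave 0.69 (SE 0.16, adjusted p = 0.051), with cKO values of 7.13 to 11.5 CPM and Ctrl values of 5.41 to 7.34 CPM that overlapped at 1 library.

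The C1q genes were higher in 3 of the 4 P24 cKO libraries and level with Ctrl in replicate 1. C1qa was at 13.2, 16.3, 16.1 and 15.1 CPM in Ctrl and at 14.8, 22.1, 23.6 and 23.2 CPM in cKO. C1qb was at 26.3, 25.0, 27.1 and 27.7 CPM in Ctrl and at 25.9, 40.4, 36.6 and 38.8 CPM in cKO. C1qc was at 24.4, 21.9, 25.6 and 25.0 CPM in Ctrl and at 22.5, 39.6, 34.1 and 32.0 CPM in cKO. For all 3 subunits the groups overlapped only through cKO replicate 1. None of them passed the test across all genes. The log2 fold changes were 0.47 for C1qa (SE 0.13, adjusted p = 0.123), 0.42 for C1qb (SE 0.11, adjusted p = 0.099) and 0.40 for C1qc (SE 0.13, adjusted p = 0.191, edgeR). Exact permutation of the libraries gave p = 0.114 for each of the 3 subunits. DESeq2 and edgeR's exact test called C1qa and C1qb as well as C4b, with adjusted p of 0.0209 to 0.04 for these subunits, beside 2.66% and 2.70% of genes.

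Without cKO replicate 1, all of C1qa, C1qb, C1qc and C4b passed, with log2 fold changes of 0.60, 0.54, 0.54 and 0.91 and edgeR adjusted p of at most 0.00168, beside 4.16% of genes. Without Ctrl replicate 1, 2 or 3, or without cKO replicate 2, 3 or 4, no member passed, and the C4b adjusted p then reached at most 0.0703.

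**Figure D1:**
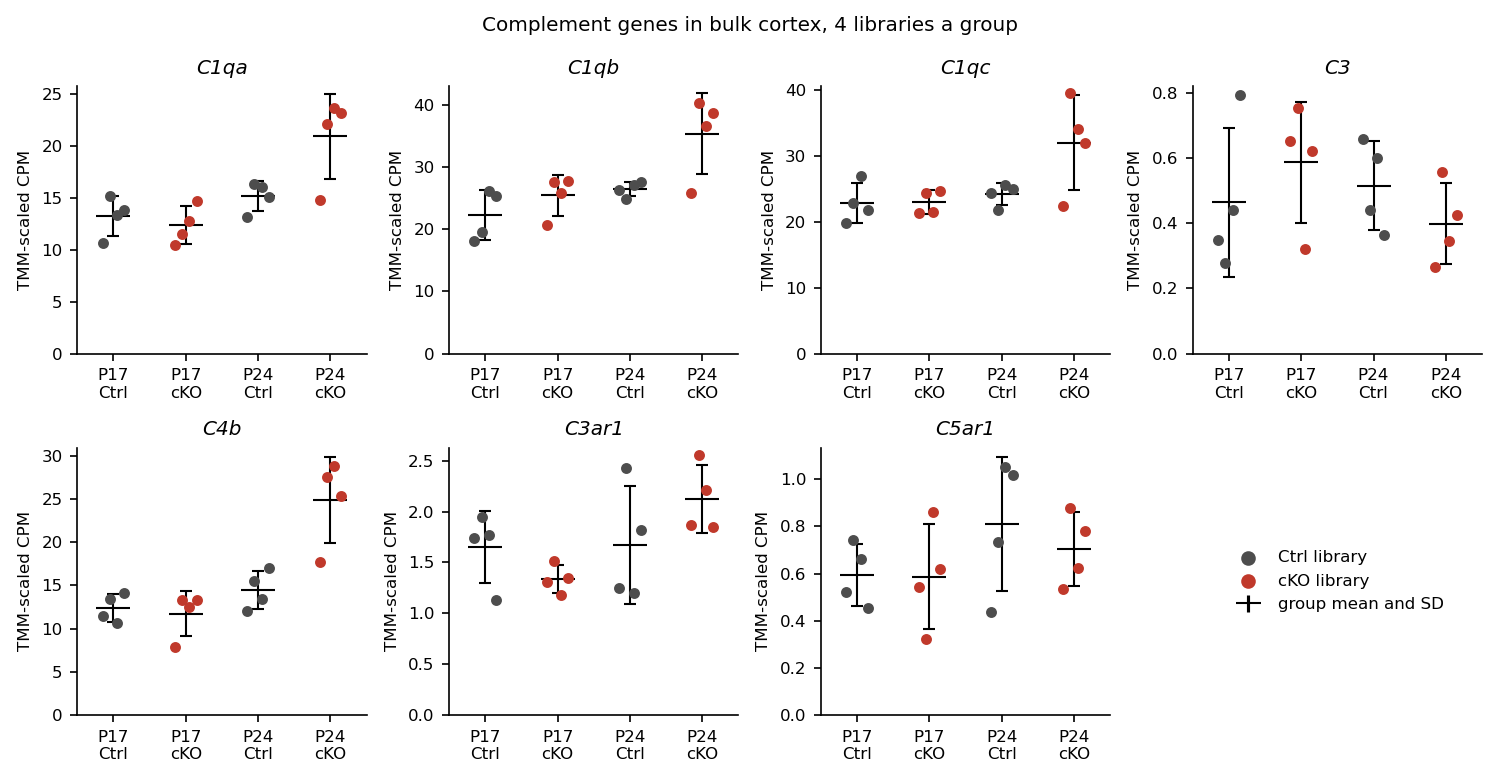
TMM-scaled CPM (linear axes from 0) of each complement gene in every bulk library at P17 and P24, grey for Ctrl and red for cKO, with the group mean and SD in black (n = 4). At P24 the cKO libraries of C4b lie between 17.7 and 28.8 CPM, above the Ctrl range of 12 to 17.01 CPM, while 1 cKO library of each C1q gene lies at the Ctrl level.

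Because C1q is made mostly by microglia, its levels were set beside 18 microglial markers. None of the 18 passed at P24 by edgeR's quasi-likelihood test, DESeq2 or edgeR's exact test, with 3 at an unadjusted p under 0.05 in each. In the first test 2958 of the 22495 genes tested had an unadjusted p under 0.05, and 1.72% passed. The median log2 fold change of the 18 was 0.069. The purinergic receptor gene P2ry12 (log2 fold change -0.11, SE 0.070), the membrane protein gene Tmem119 (-0.023, SE 0.10) and the fractalkine receptor gene Cx3cr1 (-0.015, SE 0.046) were close to 0. Ctss (0.39, SE 0.15, adjusted p = 0.266) and Cd68 (0.53, SE 0.20, adjusted p = 0.27) had values like those of C1q. Aif1 (0.49, SE 0.24), Ly86 (0.32, SE 0.28) and Fcrls (0.27, SE 0.11) were positive too, while Laptm5 (0.017, SE 0.11) was close to 0. Of the 18 markers, 11 lay above 0, and the list ran from -0.14 to 0.53. The summed level of the list ran from 556.9 to 640.9 CPM in Ctrl, and was 514.2 CPM in cKO replicate 1 and 642.0 to 703.7 CPM in the other cKO libraries. cKO replicate 1 thus had the lowest microglial sum of the 8 libraries as well as the lowest C1q of its group. That library also differed from the rest of its group over all genes, by the chi-square values given above.

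Summed over its 3 genes, C1q was 0.107 ± 0.00668 of the microglial sum in Ctrl (range 0.0985 to 0.115) and 0.138 ± 0.0108 in cKO (range 0.123 to 0.146; SD, n = 4). As a ratio, all 4 cKO libraries stood above all Ctrl libraries, replicate 1 included. Cx3cr1, Csf1r and Laptm5 were among the most abundant genes of the list. The ratio is given as a description, with no test. Markers of border macrophages, which also make C1q, summed to 15.6 to 22.9 CPM in Ctrl and 9.67 to 16.5 CPM in cKO, with log2 fold changes from -0.92 to -0.16 among the 5 tested. Those of blood monocytes and neutrophils summed to 7.8 to 11.6 CPM in Ctrl and 6.2 to 10.7 CPM in cKO.

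**Figure D2:**
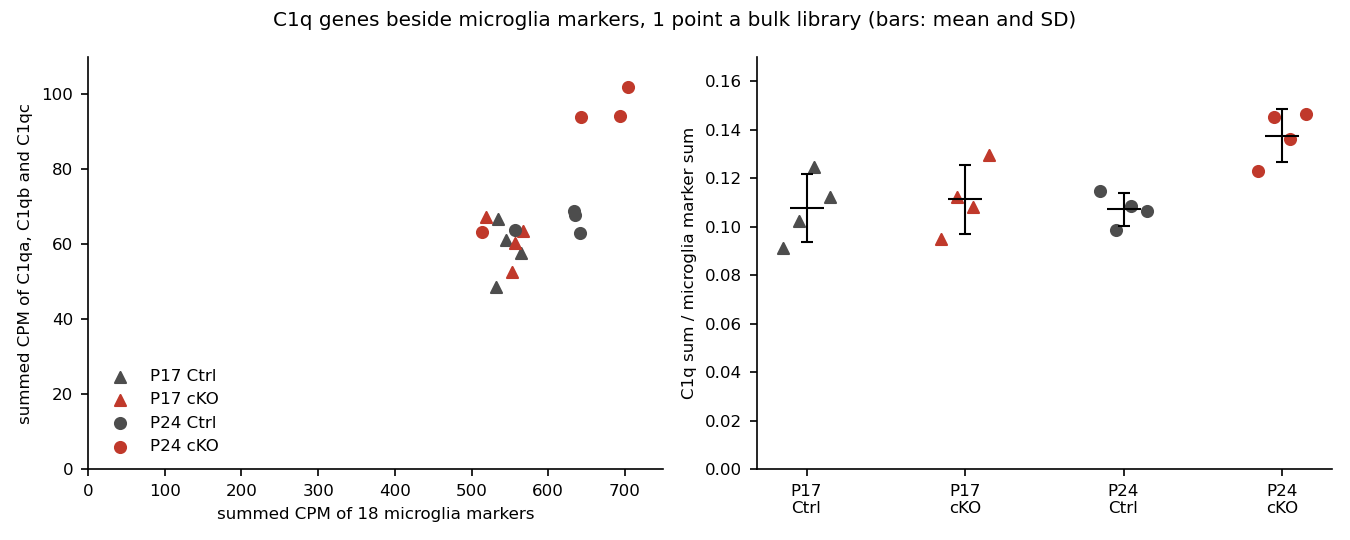
Left, the summed CPM of C1qa, C1qb and C1qc against the summed CPM of 18 microglial markers, 1 point per bulk library (triangles P17, circles P24, grey Ctrl, red cKO). Right, the ratio of these sums by group with mean and SD (n = 4), where the P24 cKO libraries lie between 0.123 and 0.146 and the P24 Ctrl libraries between 0.0985 and 0.115.

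Astrocyte markers moved in both directions in the same P24 libraries. Gfap, the astrocyte intermediate filament gene, rose by 2.51 on the log2 scale (SE 0.11, adjusted p = 2.18e-07, edgeR). The water channel gene Aqp4 and the folate enzyme gene Aldh1l1 rose by 1.25 and 1.18. The glutamate transporter genes Slc1a2 (-0.41) and Slc1a3 (-0.40) and S100b (-0.41) fell, so 3 of 8 rose and 3 fell. The summed astrocyte level was 3722 to 4380 CPM in Ctrl and 4031 to 4193 CPM in cKO. The part of these differences in the C4b result was not tested.

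C3 and C5ar1 were close to the limit of detection and C3ar1 was low. C3, the central component of the cascade, had 5 to 9 counts per P24 Ctrl library and 4 to 7 per cKO library, and was filtered out as too low in every comparison. Its levels were 0.658, 0.442, 0.601 and 0.363 CPM in Ctrl and 0.267, 0.559, 0.346 and 0.426 CPM in cKO, and the groups overlapped (exact permutation p = 0.229). Counts this low limit how small a difference in C3 could have been seen.

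C3ar1, the C3a receptor gene, was at 1.24, 2.43, 1.2 and 1.82 CPM in P24 Ctrl and 1.87, 2.56, 2.21 and 1.85 CPM in P24 cKO. The groups overlapped and the log2 fold change was 0.34 (SE 0.24, adjusted p = 0.615, edgeR). C5ar1, the C5a receptor gene, was at 0.439, 0.736, 1.05 and 1.02 CPM in Ctrl and 0.533, 0.879, 0.622 and 0.782 CPM in cKO. Its log2 fold change was -0.21 (SE 0.32, adjusted p = 0.847).

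A week earlier, at P17, the same comparison found no member changed. C4b was at 11.4, 13.5, 10.6 and 14.1 CPM in Ctrl and 7.83, 13.3, 12.5 and 13.4 CPM in cKO. C1qa was at 10.6, 15.2, 13.4 and 13.9 CPM in Ctrl and 10.4, 11.6, 12.8 and 14.7 CPM in cKO. The ranges of both genes overlapped widely, with cKO replicate 1 lowest for each.

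C1qb at P17 was at 18.2, 19.6, 26.3 and 25.4 CPM in Ctrl and 20.8, 27.7, 25.9 and 27.8 CPM in cKO. C1qc was at 19.8, 22.9, 27.0 and 21.8 CPM in Ctrl and 21.3, 24.3, 21.5 and 24.7 CPM in cKO. These groups overlapped too. The log2 fold changes were -0.066 for C4b (SE 0.16), -0.085 for C1qa (SE 0.13), 0.21 for C1qb (SE 0.13), 0.019 for C1qc (SE 0.098) and -0.30 for C3ar1 (SE 0.24), each with an adjusted p of 1.00 (edgeR). None of the 5 members tested passed by edgeR's quasi-likelihood test, DESeq2 or edgeR's exact test, beside 0.0943% of the 21201 genes in the first. An unadjusted p under 0.05 was found for 0 members and, in the first test, for 847 of those genes. The libraries of both genotypes deviated together by replicate number at P17, and a fit with that number as a block called 109 genes in place of 20 (0.514% of those tested) but still no member. C3 had 3 to 7 counts and C5ar1 3 to 8 counts per library, and neither was tested.

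The change of the genotype difference from P17 to P24 was tested as an interaction over all 16 bulk libraries. For C4b the difference was larger at P24 by 0.84 (log2, SE 0.24, unadjusted p = 0.00234), which did not pass over all genes (adjusted p = 0.421, edgeR). The corresponding values were 0.55 for C1qa (SE 0.21), 0.20 for C1qb (SE 0.19), 0.38 for C1qc (SE 0.18), 0.64 for C3ar1 (SE 0.35) and -0.20 for C5ar1 (SE 0.49). None of the 6 members tested passed by edgeR or DESeq2, beside 0.0470% of genes passing by edgeR. By edgeR 2 members had an unadjusted p under 0.05, beside 1479 of the 23395 genes tested. The C4b interaction passed with the replicate number as a block (adjusted p = 0.0444) and without P24 cKO replicate 1 (adjusted p = 0.0282). In these fits 0.235% and 0.633% of all genes passed. The replicate numbers at P24 are not known to pair mice.

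**Figure D3:**
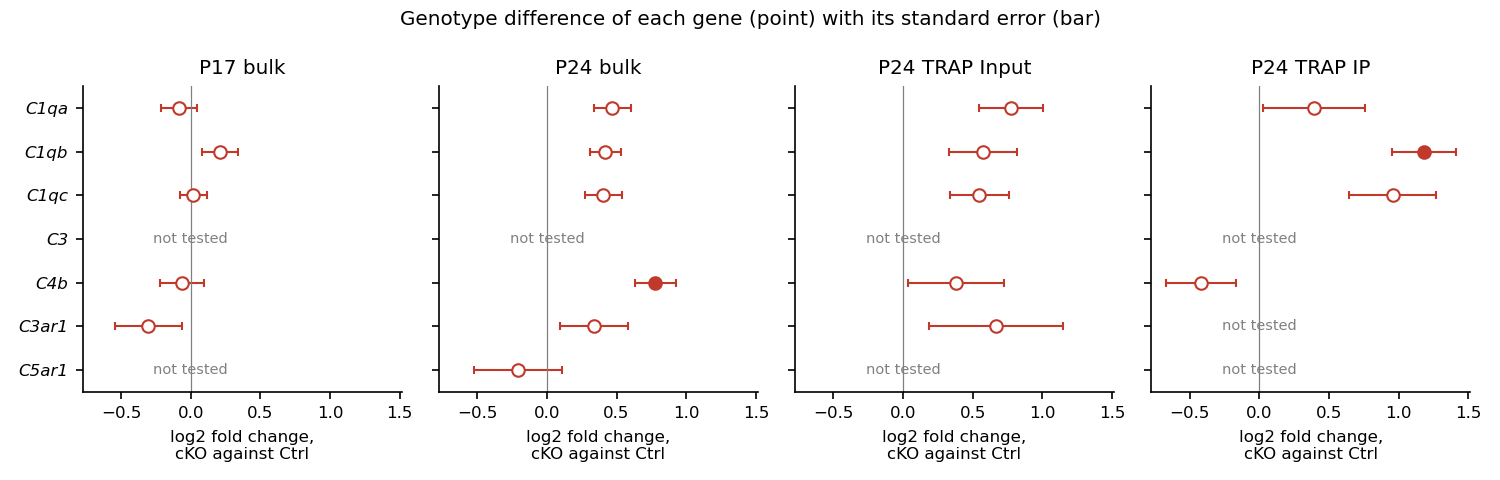
Log2 fold change of cKO against Ctrl (edgeR) for each complement gene in the 4 genotype comparisons, with the standard error as a bar. Filled points have an adjusted p under 0.05, which are C4b in P24 bulk (0.78) and C1qb in the TRAP IP (1.18), and genes removed as too low are marked as not tested.

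TRAP placed the members in different fractions. In Ctrl mice the C1q genes were depleted from the IP and C4b was enriched in it. C4b was at 2.99, 3.6 and 3.18 CPM in Input and 9.8, 12.1 and 15.8 CPM in IP. C1qa was at 4.61, 6.2 and 4.34 CPM in Input and 0.984, 0.842 and 0.749 CPM in IP. C1qc was at 5.31, 5.87 and 4.64 CPM in Input and 0.681, 0.842 and 0.591 CPM in IP. The fractions of each gene did not overlap. The same held for 38.1% of the genes tested as higher in IP and 36.3% as lower.

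The Ctrl log2 fold changes of IP against Input were 1.91 for C4b (SE 0.20), -2.59 for C1qa (SE 0.23), -2.26 for C1qb (SE 0.24) and -2.94 for C1qc (SE 0.22), with adjusted p of at most 3.99e-06 (edgeR). All 4 members tested passed, beside 71.0% of the 24385 genes tested, so passing alone says little here. The median over all genes was -0.029. With 3 libraries a group an exact permutation test cannot go below p = 0.1, the value each of the 4 genes had. Neither that test nor the main fit used the mouse as a block, although IP and Input share mice. Under the alternative settings, that block among them, all 4 genes passed, and C4b lay between 1.80 and 1.99. The astrocyte markers lay between 2.40 and 4.62 and the microglial markers had a median of -1.50. Among the latter, 15 of 18 passed as lower in IP, Laptm5 (-5.19) and Tmem119 (-2.54) with the largest changes, and the transcription factor gene Sall1 (1.48) passed as higher.

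C3ar1 had 6 to 8 counts per Ctrl Input library and 1 or 2 per IP library, at or below the limit. C5ar1 had 1 to 5 counts in Input and 1 to 3 in IP. C3 had 4 to 9 counts in Input and 6, 0 and 2 in IP, where the 0 allows up to 3 counts. The intervals and limits used here cover counting error only.

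In cKO mice C4b was again higher and the C1q genes lower in IP. C4b was at 2.41, 6.44 and 3.92 CPM in Input and 6.1, 8.43 and 13.2 CPM in IP of replicates 1 to 3. Within each mouse IP exceeded Input, although the fractions overlapped between mice. The log2 fold changes were 1.09 for C4b (SE 0.40, adjusted p = 0.0441), -2.98 for C1qa (SE 0.35), -1.66 for C1qb (SE 0.24) and -2.53 for C1qc (SE 0.29), where the C1q genes had adjusted p of at most 0.000452 (edgeR). These 4 of 4 members tested stood beside 56.3% of the 24011 genes tested. Without Input replicate 3, IP replicate 2 or IP replicate 3 the C4b value no longer passed, at an adjusted p of up to 0.166, and with the mouse as a block it gave 1.14 (adjusted p = 0.0116). Without Input replicate 1, the library that stood apart, it was 0.82 (adjusted p = 0.0376).

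The receptors and C3 were too low for this test. C3ar1 had 8, 21 and 14 counts in cKO Input and 2, 1 and 2 in cKO IP. C5ar1 had 6, 4 and 7 counts in Input and 1, 0 and 2 in IP, where the 0 allows up to 3 counts. Both receptors were lower in every IP library than in every Input library, as were 32.0% of the genes tested. The C5ar1 counts lie around the limit of 3. C3 had 1, 4 and 7 counts in Input and 2, 5 and 4 in IP, which overlapped.

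**Figure D4:**
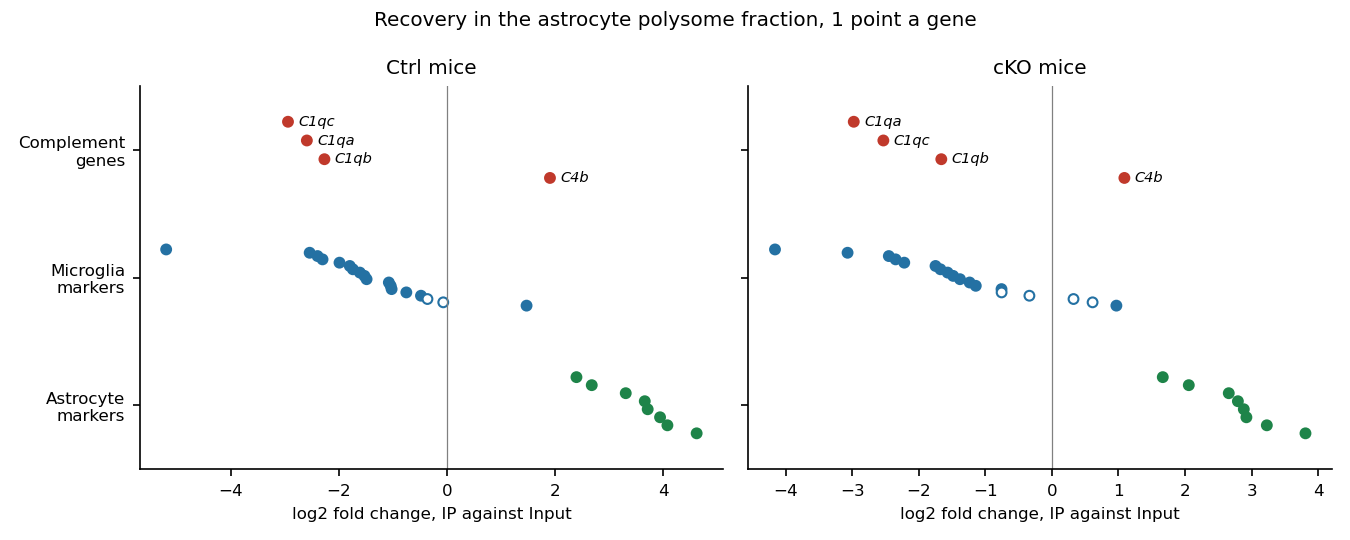
Log2 fold change of IP against Input in Ctrl mice (left) and cKO mice (right), 1 point per gene, for the complement genes (red, named), microglial markers (blue) and astrocyte markers (green). Filled points have an edgeR adjusted p under 0.05, and C4b (1.91 and 1.09) lies to the right of 0 while the C1q genes lie to the left.

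In the TRAP Input, an independent set of P24 cortex libraries, the C1q genes were higher in cKO but no member passed the test. C1qa was at 9.44, 10.1 and 6.67 CPM in cKO and 4.61, 6.2 and 4.34 CPM in Ctrl. C1qb was at 8.9, 9.88 and 6.46 CPM in cKO and 4.57, 7.25 and 4.99 CPM in Ctrl. C1qc was at 7.76, 9.41 and 6.21 CPM in cKO and 5.31, 5.87 and 4.64 CPM in Ctrl. The groups did not overlap for C1qa and C1qc, which 7.11% of tested genes did as well, and overlapped for C1qb.

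The Input log2 fold changes were 0.77 for C1qa (SE 0.23, unadjusted p = 0.00883), 0.57 for C1qb (SE 0.25), 0.55 for C1qc (SE 0.21), 0.38 for C4b (SE 0.34) and 0.67 for C3ar1 (SE 0.48), with adjusted p of 0.794 to 0.82 (edgeR). None of the 5 members tested passed by edgeR's quasi-likelihood test, DESeq2 or edgeR's exact test, beside 0.109% of genes in the first. In that first test 3 members had an unadjusted p under 0.05, beside 960 of the 23828 genes tested. The C4b value rested on single libraries, at -0.058 without cKO replicate 2 (6.44 CPM) and 0.66 without cKO replicate 1. Without cKO replicate 1, the library that stood apart, C1qa, C1qb and C1qc had 0.73, 0.54 and 0.56, and no member passed. C5ar1 had 6, 4 and 7 counts in cKO Input and 5, 2 and 1 in Ctrl Input and was not tested, nor was C3, with 1 to 7 and 4 to 9 counts. The microglial list summed to 265.4 to 346.8 CPM in cKO and 247.3 to 277.7 CPM in Ctrl, with a median log2 fold change of 0.35. None of the 18 passed by edgeR's quasi-likelihood test, DESeq2 or edgeR's exact test, with 3, 4 and 4 at an unadjusted p under 0.05. The ratio of C1q to that sum was 0.082 ± 0.0138 in cKO and 0.0602 ± 0.00823 in Ctrl (SD, n = 3), and the ratios did not overlap. The astrocyte list summed to 1540 to 1945 CPM in cKO and 954 to 1102 CPM in Ctrl Input, and the part of this in the member values was not tested.

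In the IP, which samples the polysomes of tagged cells, C1qb rose in cKO and C4b did not pass the test. C4b was at 6.1, 8.43 and 13.2 CPM in cKO and 9.8, 12.1 and 15.8 CPM in Ctrl. The groups overlapped, and the log2 fold change of -0.42 (SE 0.25, adjusted p = 0.281, edgeR) did not pass. It passed without cKO IP replicate 3 (-0.77, adjusted p = 0.0376). C1qb was at 2.23, 2.65 and 3.12 CPM in cKO and 1.02, 1.3 and 1.26 CPM in Ctrl, from 27 to 80 counts per library. Every cKO library was above every Ctrl library for C1qb, and the log2 fold change of 1.18 passed (SE 0.23, adjusted p = 0.00501).

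C1qc was at 1.33, 1.76 and 0.976 CPM in cKO and 0.681, 0.842 and 0.591 CPM in Ctrl, with no overlap and a log2 fold change of 0.96 (SE 0.31, adjusted p = 0.0512). It passed without cKO IP replicate 3 (adjusted p = 0.0316) and by edgeR's exact test (adjusted p = 0.0293). C1qa was at 0.558, 1.19 and 1.56 CPM in cKO and 0.984, 0.842 and 0.749 CPM in Ctrl. These overlapped and gave 0.39 (SE 0.36, adjusted p = 0.496). C3, C3ar1 and C5ar1 had 0 to 6 counts in every IP library of either genotype, with overlap, and were not tested. The member that passed, C1qb, was 1 of 4 tested, beside 20.0% of the 23864 genes tested and 18.3% with all cKO libraries above all Ctrl libraries. That share of the members is near the background. With library size alone as the scaling, the median of all genes moved from -0.015 to -0.13 and the genes called higher and lower changed from 2772 and 2010 to 2002 and 3529. C1qb then stood at 1.07 (adjusted p = 0.00728) and C4b at -0.53 (adjusted p = 0.135).

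Of 17 microglial markers tested in the IP, 2 passed as higher, among them the lysosomal gene Cd68 (log2 fold change 1.66), and 1 as lower, Sall1 (-0.49), with a median of 0.14. This is close to the 20.0% of all genes that passed. The list summed to 185.6 to 306.5 CPM in cKO IP and 185.0 to 214.8 CPM in Ctrl IP. Cx3cr1 and Sall1 were among the most abundant genes in that sum. Border macrophage markers summed to 6.17 to 8.82 CPM in cKO IP and 3.86 to 6.39 CPM in Ctrl IP. The part of these markers in the C1qb result was not tested. Per length, C1qb was 2.62 ± 1.05 times C1qa in the cKO IP (SD, n = 3) and 1.36 ± 0.325 times in the Ctrl IP, with 13 to 40 counts of C1qa per library. In bulk at P24 that ratio was 1.62 ± 0.112 in cKO and 1.69 ± 0.194 in Ctrl (SD, n = 4).

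**Figure D5:**
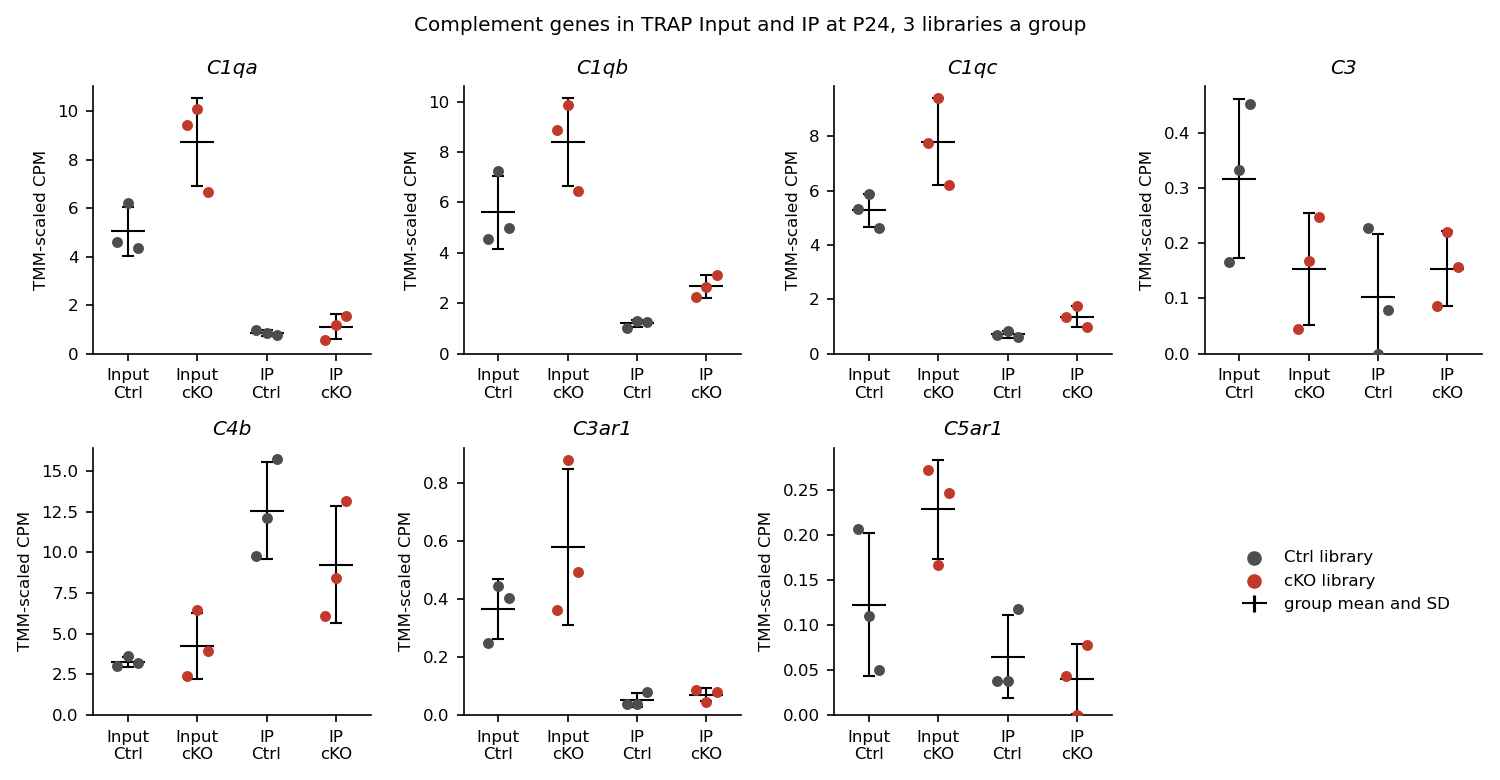
TMM-scaled CPM (linear axes from 0) of each complement gene in the TRAP Input and IP libraries at P24, grey for Ctrl and red for cKO, with the group mean and SD in black (n = 3). C4b is higher in IP than in Input in Ctrl (9.8 to 15.8 against 2.99 to 3.6 CPM), and the C1q genes are lower in IP in both genotypes.

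Whether the genotype difference in IP differed from that in Input was tested as an interaction over the 12 TRAP libraries, without the mouse as a block. The values were -0.81 for C4b (log2, SE 0.47, unadjusted p = 0.108), 0.60 for C1qb (SE 0.33, unadjusted p = 0.0922), 0.40 for C1qc (SE 0.36), -0.39 for C1qa (SE 0.43) and -0.24 for C3ar1 (SE 1.13). None of the 5 members tested passed by edgeR or DESeq2, beside 0.0582% of genes passing by edgeR. By edgeR 0 members had an unadjusted p under 0.05, beside 2252 of the 25768 genes tested. No member passed under the alternative settings either, the mouse as a block among them, where the C4b values lay between -0.90 and -0.67. The C4b values of opposite sign in IP and Input are therefore not shown to differ. Without Input cKO replicate 1 the C4b value was -1.09 (adjusted p = 0.174).

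Other genes of the cascade came from lists of initiation, alternative, terminal and regulatory components and of receptors, 52 genes in all. At P24 in bulk none of 35 tested passed by edgeR's quasi-likelihood test, beside 1.72% of all genes. Their median log2 fold change was -0.048. Of the 35, 7 had an unadjusted p under 0.05, beside 2958 of all 22495 genes tested. DESeq2 and edgeR's exact test each called 1, C4a, beside 2.66% and 2.70% of all genes. The 7 with an unadjusted p under 0.05 had values in both directions. C4a (given above), Clu, a soluble regulator (0.14, SE 0.044), the lectin pathway protease gene Masp1 (0.19, SE 0.072) and the CR3 subunit genes Itgam (0.40, SE 0.16) and Itgb2 (0.48, SE 0.22) were positive. The soluble regulator Vtn (-0.23, SE 0.080) and Csmd3 (-0.22, SE 0.073) were negative. At P17 none of 31 passed by those 3 tests, with 1, 0 and 1 at an unadjusted p under 0.05 by edgeR's quasi-likelihood test, DESeq2 and the exact test, and a median of -0.018. In Input none of 34 passed by any of them, with 2 at an unadjusted p under 0.05 in each and a median of 0.067. Over all genes, edgeR's quasi-likelihood test gave an unadjusted p under 0.05 for 847 of 21201 at P17 and 960 of 23828 in Input. It called 0.0943% and 0.109% of those genes, so the lack of a call among lists this short says little.

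In the IP, 4 of 30 of these genes passed between genotypes, beside 20.0% of all genes. C2, the catalytic partner of C4 (-0.55, SE 0.16, adjusted p = 0.0299), fell, as did the neuronal CUB and sushi domain genes Csmd2 (-0.53) and Sez6 (-0.47). C1qbp, which encodes a mitochondrial protein that also binds C1q globular heads, rose (0.36, SE 0.10, adjusted p = 0.0211). Between fractions in Ctrl, 5 of 32 passed as higher in IP and 18 as lower, beside 35.3% and 35.7% of all genes. The higher ones included Clu (3.06), C4a (1.46), Cr1l, the rodent membrane regulator Crry (0.86), and Masp1 (0.63). Among the lower ones with the largest changes were the neuronal genes Sez6 (-3.10), Sez6l2 (-2.82), Sez6l (-2.41) and Csmd2 (-2.04).

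The 3 genes whose level most resembled each member's were sought by Pearson's r of log2 CPM. These r are descriptions over libraries that share age, genotype and depth. Over the 16 bulk libraries, C4a came first for C4b (r = 0.957), followed by Tab2 (0.93) and Kcnj16 (0.925). C4a transcripts hold 34.6% of the C4b windows. The part of this in the r of C4a with C4b, in bulk or over all libraries, was not tested. C1qa was most like Rnf13 (0.931), Ctss (0.924) and Lamp1 (0.922), and C1qb most like Rab5c (0.936), Ctsb (0.926) and Atp6ap2 (0.925). C1qc was most like Gm14493 (0.925), Ap1s1 (0.921) and Esd (0.919). The receptors had lower values, C3ar1 with Spata6 (0.841), Tmem47 (0.831) and Taf9b (0.827), and C5ar1 with Gm27244 (0.866), Gm12642 (0.847) and Sdhaf1 (0.819).

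Among the members in bulk, C1qa had an r of 0.923 with C4b, above its 0.845 with C1qc and 0.834 with C1qb, and C1qb had 0.9 with C1qc. Over all 28 libraries r also carries the gaps between tables and fractions, across which the C1q levels differ many-fold. C4a was again first for C4b there (0.963), with Lmf2 (0.953) and Lgals3bp (0.948). C1qa was most like Mogs (0.981), Ctss (0.98) and Slc26a10 (0.977), C1qb like Adam15 (0.979), Myo3a (0.978) and Wfs1 (0.977), and C1qc like Csf1r (0.987), Laptm5 (0.986) and Ctss (0.986). C3ar1 was most like Csf3r (0.98), Adgre1 (0.977) and Slc12a2 (0.977), and C5ar1 like Itih2 (0.952), 1700109H08Rik (0.939) and Robo3 (0.938).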

How the data were processed

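The authors mapped reads with STAR in Galaxy to mm10 and deposited raw read counts per Ensembl gene, without normalization, in a table per experiment (P24 bulk, P17 bulk, TRAP). The counting tool and its strand setting are not given in the sources used here. Bulk libraries used oligo-dT primed reverse transcription and TRAP libraries a different kit, so no level was tested between them, and only the correlations over all 28 libraries pool them. Symbols were matched with GENCODE M21. The age of the bulk tables rests on their names.

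The complement genes and the marker lists were chosen with earlier results of these data known. Comparisons used edgeR 4.0.16 (R 4.3.3): filterByExpr with a minimum count of 10, TMM, glmQLFit and glmQLFTest on the groups compared, two-sided, Benjamini-Hochberg over all genes tested, threshold 0.05. A member removed by that filter was not tested. Standard errors are the log2 fold change divided by the root of its F statistic. DESeq2 1.42.0 and edgeR's exact test were alternatives. CPM used TMM factors per table. Single genes were also compared with exact permutation tests (scipy 1.17.1). The fits were tested on simulated counts. All 7 members are covered, those below the filter by their counts. From every other list up to 4 genes a direction are named, those of largest change that passed and whose mean log2 CPM was not below 0, and genes named with values that did not pass were chosen after their values were seen. At most 3 like genes are named per member.

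Depth limits precision to about 0.2 to 0.341 CPM in bulk and 0.106 to 0.166 CPM in TRAP (3 counts). All 36 pairs of replicates differed by more than counting noise (chi-square per degree of freedom 2.59 to 78.6). Same-numbered P17 libraries deviated together in all 4 pairs (r = 0.167 to 0.38), which is taken as pairing of a kind the labels do not state. P24 bulk (0.0286 to 0.218) and the TRAP genotype pairs did not reach 0.1 in every pair, and IP and Input of the same number come from the same mouse. The gene targeted in cKO mice and the values of 1 microglial marker are not reported here.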

Additional observations from a re-analysis of the deposited data

Results flagged for a closer look

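2 member levels stood apart within a group of 4 bulk libraries by Dixon's test at the 95% level, out of 28 groups tested, where chance gives about 1 in 20 groups. In the P24 cKO group the lowest C1qa library, replicate 1, was at 14.8 CPM against 22.1 to 23.6 CPM in the others, a gap of 0.829 of the group's range. In the P17 cKO group the lowest C4b library, replicate 1, was at 7.83 CPM against 12.5 to 13.4 CPM in the others, a gap of 0.842 of the range. These are different mice that share only a replicate number.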

How the results depend on the processing

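Direction and side of the threshold held for most values. With DESeq2, without the count filter and with edgeR's exact test, 3 members passed at P24 in bulk in place of 1 (598, 618 and 608 genes in all, against 388). With the replicate block 2 passed (C1qa and C4b), beside 410 genes in all (1.82%). At P17 DESeq2, the fit without the filter and the exact test called 41, 55 and 56 genes and the block 109, against 20, with no member. In the IP, 2 members passed without the filter and with the exact test, beside 5364 and 5406 genes in all, against 4782. With the replicate block 3 members passed, beside 6735 genes in all. The block added C1qc (adjusted p = 0.0328) and C4b (log2 fold change -0.46, adjusted p = 0.0215). A fit of all TRAP libraries together called 1684 genes in IP against 4782. In Input the genes called were 127 with DESeq2, 112 without the filter, 8 with the block, 136 with the exact test and 127 in the joint fit, against 26. The age interaction called 54, 62 and 55 genes with DESeq2, without the filter and with the block, against 11, and the block passed 1 member, C4b. The fraction interaction called 284, 189 and 6, against 15. The labels do not say, at P17 or elsewhere, whether libraries of the same number and different genotype come from littermates. The block values of the P24 and TRAP genotype comparisons are not read as pairing. The block changed no other member call. The cause of these moves was not tested.

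Leaving out 1 library gave 0 to 4 members and 216 to 950 genes at P24, 0 and 11 to 19 at P17, 1 to 3 and 2633 to 4810 in IP, 0 and 4 to 112 in Input, 4 to 5 and 16154 to 17296 between Ctrl fractions, 3 to 5 and 10973 to 16818 between cKO fractions, 0 to 1 and 4 to 149 for the age interaction, and 0 and 3 to 432 for the fraction interaction. The highest counts came without P24 cKO replicate 1 (950 and 149) and without Input cKO replicate 1 (112 and 432). Signs turned among values that had not passed: C1qc at P17 (-0.0476 to 0.11), C4b at P17 (-0.13 to 0.0861), C4b in Input (-0.0577 to 0.66), C5ar1 in the age interaction (-0.39 to 0.0437) and C3ar1 in the fraction interaction (-0.49 to 0.18). Dropping Ctss and Tyrobp from the microglial list moved no group's C1q ratio by as much as its SD. The mean ratio went from 0.1071 to 0.1127 in P24 bulk Ctrl and from 0.1376 to 0.1467 in P24 bulk cKO. Ctss and Tyrobp make up a small part of the microglial sum, so dropping them could move the ratio only slightly. Whether the ratio depends on the most abundant genes of the list was not tested. C3, C5ar1 and, in IP, C3ar1 were limited by depth.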
